A study of Homo sapiens with 6 samples.

Results

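Cholesterol and fatty acid synthesis in VCaP cells was followed through 39 genes: 19 of the sterol branch, 15 of the fatty acid branch and 5 regulators of the sterol regulatory element-binding proteins (SREBPs). The members were the probe sets of the array whose platform annotation gave exactly 1 of the 39 symbols. This matched 82 of 41091 probe sets with a single symbol and 35 of 19775 genes. After a filter on dim probe sets, 34 members were tested among 12413 genes: 16 of the sterol branch, 13 of the fatty acid branch and all 5 regulators. MVD, mevalonate diphosphate decarboxylase, had a probe set at 0.6 to 6.5 in the 6 arrays, below the filter, and has no fold change. The platform annotation names a further gene beside CYP51A1, FADS1 and ELOVL1 on each of their 7 probe sets, so those were left out, and FDFT1 was not analysed here.

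VCaP cells, an established line from a human prostate cancer, carried a hairpin RNA (shRNA) switched on by doxycycline, in 3 groups of 2 arrays: PRMT5 shRNA 2, PRMT5 shRNA 1 and a non-targeting hairpin (NTC shRNA). Every culture, those with NTC included, had 100 ng/ml doxycycline for 3 days, so there were no cells without the drug. The labels do not say whether a line is a clone or a pool, or whether replicates were separate cultures, so a p-value here sets a difference against the spread of these arrays alone, and that spread may be technical. Values are linear MAS5 intensities of probe sets. Where a pair of intensities is given for a group, replicate 1 precedes replicate 2, and intensities of different probe sets are not compared with each other.

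PRMT5, the arginine methyltransferase targeted by both hairpins, stood at 291 and 321 with shRNA 2 and at 136 and 134 with shRNA 1, against 809.8 and 880.5 with NTC. The arrays of a group correlated at 0.996 to 0.997 over the tested genes and arrays of different groups at 0.976 to 0.991, and array medians lay between 14.8 and 16.4. Of 11 prostate luminal markers, 10 had a probe set and all 10 passed the filter. With the hairpins averaged 5 were called higher and 3 lower, between -0.38 and 1.13 on the log2 scale. This is 80% called, beside 32.4% of all genes. Of 7 adipocyte markers only LPL and PLIN1 passed, and ADIPOQ, FABP4, LEP, CIDEA and GPD1 reached at most 13.4, although LPL rose. The summed adipocyte markers were 1587 and 1538 with shRNA 2 and 1229.5 and 1215 with shRNA 1, against 1107 and 1019 with NTC. Hepatocyte markers summed to 1105 to 1193 with shRNA 2 and 1071 to 1108 with shRNA 1, against 1007 to 1102 with NTC. Among them ALB, SERPINA1 and TTR passed the filter and TTR rose by 0.57, and APOA1, APOA2 and CYP7A1 stayed at 12.3 or below. Of 6 stromal markers, LUM and COL1A1 passed the filter, LUM rose and COL1A1 was not called, while COL1A2, COL3A1, DCN and PDGFRB stayed at 8.1 or below. Among the leukocyte markers LYZ passed and rose, while PTPRC, CD3E, CD14 and MS4A1 stayed at 13.7 or below. All 5 endothelial markers stayed at 11 or below. Stromal markers summed to 725 to 811 with shRNA 2 and 992 to 1061 with shRNA 1, against 484.5 to 518 with NTC, and leukocyte markers to 87 to 95 with shRNA 2 and 146 to 147.5 with shRNA 1, against 45 to 51.6 with NTC. The part of these genes in the results was not tested.

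Cells build cholesterol from acetyl-CoA by way of mevalonate, farnesyl diphosphate, squalene and lanosterol, and fatty acids from acetyl-CoA and malonyl-CoA, with NADPH as the reductant of both routes. The enzymes of both are textbook targets of the SREBPs, membrane-bound transcription factors that SCAP escorts out of the endoplasmic reticulum when sterols are low and that the INSIG proteins hold back when sterols are plentiful. The SREBF2 product acts mainly on the sterol branch and the SREBF1 product mainly on the fatty acid branch. In prostate cancer cells androgens are known to raise enzymes of both branches.

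Differences were fitted with limma on log2(intensity + 16), and a call means an adjusted p (Benjamini-Hochberg, over all 12413 genes) under 0.05. The added 16 makes differences of dim genes smaller than those of the intensities. With both PRMT5 hairpins averaged against NTC, 17 of 34 tested members were called, 11 higher and 6 lower. Of all genes tested, 32.4% were called, 15.4% higher and 17% lower. The differences were modest, between -0.43 for FASN and 0.83 for FADS2 on the log2 scale. FADS2 passed the filter only through the knockdown arrays, and the next highest was 0.74 for SC5D. All 4 knockdown arrays lay above both NTC arrays for 13 members and below both for 4 members, against 18.7% and 20.6% of all genes. In bulk RNA, a smaller share of cells expressing a gene cannot be told apart from less of its RNA per cell.

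With PRMT5 shRNA 2, 8 members were called, 7 higher and 1 lower, beside 21.5% of all genes (13.1% higher and 8.42% lower). With PRMT5 shRNA 1, 19 members were called, 10 higher and 9 lower, beside 39.3% of all genes (16.2% higher and 23.2% lower). SC5D, TM7SF2, MSMO1, FADS2 and ELOVL7 were higher and FASN was lower with each hairpin, which makes 6 of 34 members (17.6%) called the same way by both, beside 14.5% of all genes. Called in opposite directions were 0 members, beside 0.274% of all genes. A further 13 members (38.2%) were called with shRNA 1 only, beside 24.6% of all genes, and 2 (5.88%), ME1 and SREBF2, with shRNA 2 only, beside 6.75%. FADS2 passed the filter only through the knockdown arrays. Without it 10 of 33 members were higher and 6 lower on average, and 5 were called the same way by both hairpins, 4 higher and 1 lower. With FADS2 left out, 6 were higher and 1 lower with shRNA 2, and 9 higher and 9 lower with shRNA 1. Both comparisons use the same NTC arrays.

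**Figure D1:**
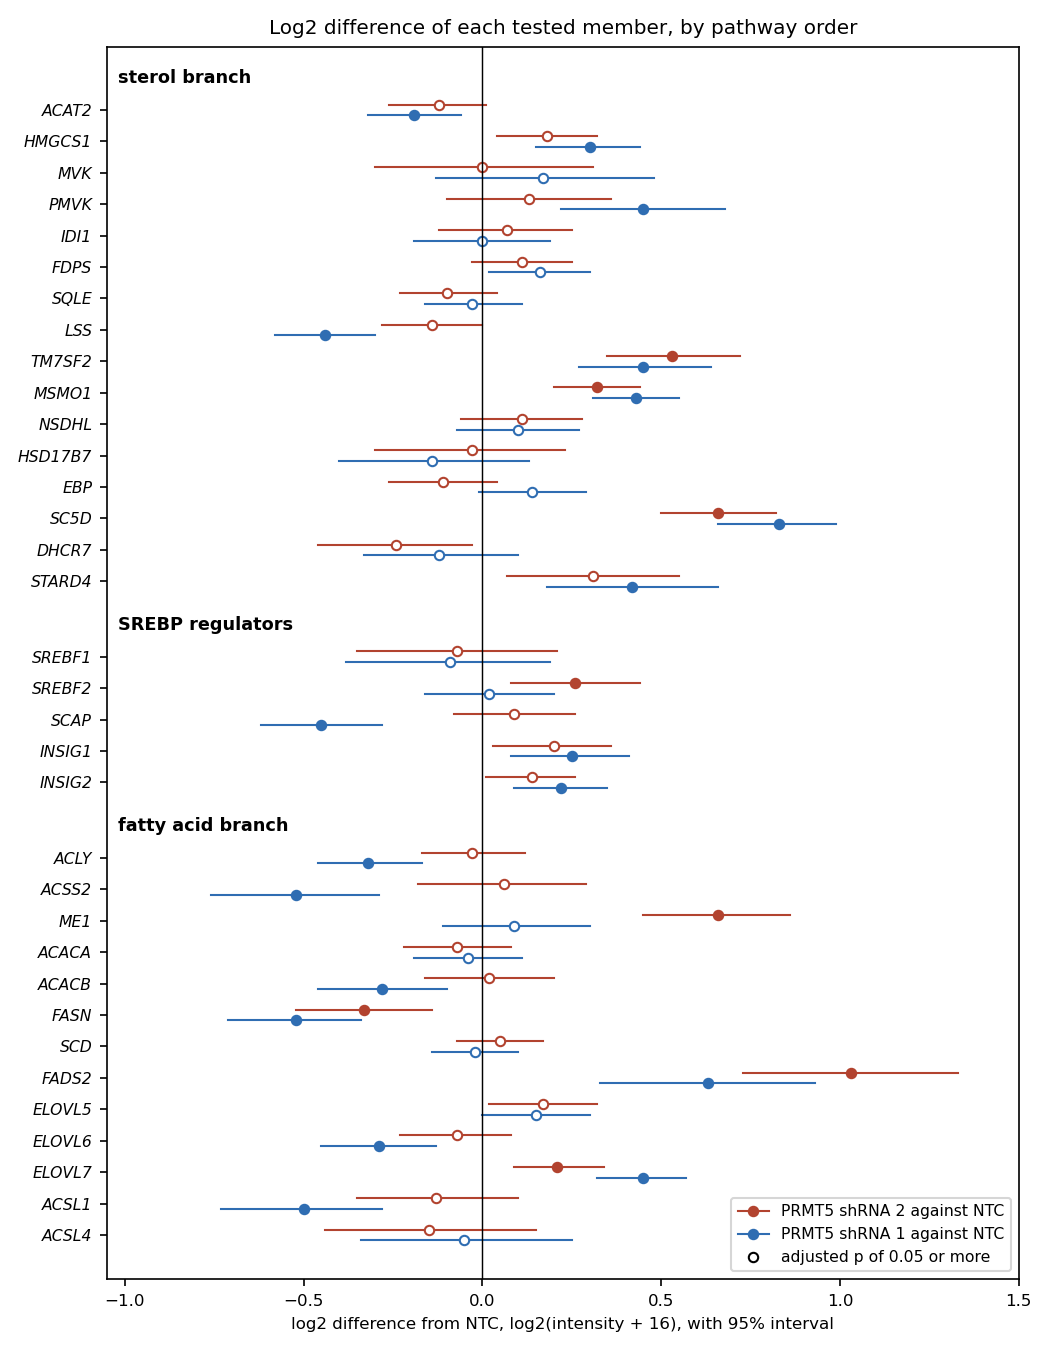
Log2 difference from NTC, on log2(intensity + 16), for the 34 tested members in pathway order with PRMT5 shRNA 2 (red) and PRMT5 shRNA 1 (blue). Points are limma estimates, lines their 95% intervals, and open points had an adjusted p of 0.05 or more. SC5D, TM7SF2 and MSMO1 lie to the right of 0 and FASN to the left with both hairpins, while SCAP, ACSS2 and ME1 lie apart between them.

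Of the enzymes that lead from acetyl-CoA to farnesyl diphosphate, 6 were tested with both hairpins averaged: 2 were higher, 1 was lower and 3 were not called. This is 50% called, beside 32.4% of all genes. HMGCS1, the cytosolic synthase of HMG-CoA, gave 1179.8 and 1108 with shRNA 2 and 1303 and 1187 with shRNA 1, against 1015 and 1004 with NTC. All 4 knockdown arrays were above both NTC arrays. HMGCS1 rose by 0.24 ± 0.06 (SE) with the hairpins averaged (limma, adjusted p = 0.0081), and by 0.30 ± 0.06 with shRNA 1 (adjusted p = 0.0044). With shRNA 2 its difference of 0.18 had an adjusted p of 0.074. PMVK, phosphomevalonate kinase, gave 1312 and 988 with shRNA 2 and 1415.5 and 1435 with shRNA 1, against 992 and 1087 with NTC. The second shRNA 2 array was as low as the NTC arrays, so the groups overlap there, and the shRNA 1 arrays were the highest. PMVK rose by 0.45 ± 0.11 with shRNA 1 (adjusted p = 0.0065) and differed by 0.13 ± 0.11 with shRNA 2 (adjusted p = 0.42). Without that second array the shRNA 2 difference was 0.33 (adjusted p = 0.011), and the averaged 0.29 of PMVK (adjusted p = 0.032) was 0.19 without the first (adjusted p = 0.027).

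ACAT2, which joins acetyl-CoA units ahead of HMGCS1, was the 1 lower gene of these, at 673 and 661 with shRNA 2 and 645 and 628 with shRNA 1, against 724 and 733 with NTC. The 4 knockdown arrays were all below the NTC arrays, by a small margin. Its averaged difference was -0.16 ± 0.05 (limma, adjusted p = 0.04). FDPS, farnesyl diphosphate synthase, had its 4 knockdown arrays above both NTC arrays, at 899 to 966 with shRNA 2 and 951 to 981 with shRNA 1 against 831 and 894 with NTC, but an averaged difference of 0.14 ± 0.06 missed the threshold (adjusted p = 0.087). MVK, mevalonate kinase, was dim at 30.7 to 46.5, and IDI1, the isopentenyl diphosphate isomerase, stood at 845.5 to 1021. Their arrays overlapped, with averaged 95% intervals of -0.17 to 0.35 for MVK and -0.13 to 0.20 for IDI1. IDI1's second probe set gave 1029.5 and 1008 with shRNA 2 and 864 and 929 with shRNA 1, against 879 and 868.5 with NTC. It was called higher with shRNA 2 (0.22, limma over probe sets, adjusted p = 0.032), and not with shRNA 1 (0.04) or on average (0.13). The averaged call of HMGCS1 was lost without NTC replicate 1 (adjusted p = 0.057) or NTC replicate 2 (0.07). That of PMVK was lost without shRNA 1 replicate 1 (0.058), shRNA 1 replicate 2 (0.067), NTC replicate 1 (0.22) or NTC replicate 2 (0.06). That of ACAT2 was lost without any of 5 arrays, with adjusted p-values of 0.052 without shRNA 2 replicate 2, 0.068 and 0.1 without shRNA 1 replicates 1 and 2, and 0.16 and 0.21 without NTC replicates 1 and 2. The shRNA 1 call of ACAT2 (-0.19, adjusted p = 0.028) was lost without either shRNA 1 array or either NTC array (0.076 to 0.14), and FDPS was called on average without shRNA 2 replicate 2 (0.16, adjusted p = 0.046) and with shRNA 1 (0.16, adjusted p = 0.05 after rounding).

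Of the enzymes that lead from squalene to cholesterol, 9 were tested: with the hairpins averaged 3 were higher, 1 was lower and 5 were not called. This is 44.4% called, beside 32.4% of all genes. SC5D, the sterol desaturase that acts next to last in cholesterol synthesis, gave 1319 and 1279 with shRNA 2 and 1352 and 1583 with shRNA 1, against 839 and 794 with NTC. Its lowest knockdown array was well above both NTC arrays. SC5D rose by 0.74 ± 0.06 on average (limma, adjusted p = 8.5e-06), or 1.68-fold, by 0.66 ± 0.07 with shRNA 2 (adjusted p = 9.6e-05) and by 0.83 ± 0.07 with shRNA 1 (adjusted p = 1.2e-05). Its shRNA 2 call was lost when probe sets that can read several transcripts were left out (0.30, adjusted p = 0.073). TM7SF2, a reductase of the sterol ring, gave 1106 and 917 with shRNA 2 and 977 and 929.5 with shRNA 1, against 670.1 and 713 with NTC. The 4 knockdown arrays were above both NTC arrays and the hairpins overlapped each other. TM7SF2 rose by 0.53 ± 0.08 with shRNA 2 (adjusted p = 0.00099) and by 0.45 ± 0.08 with shRNA 1 (adjusted p = 0.0017).

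MSMO1, a methylsterol monooxygenase that acts in the removal of ring methyl groups, gave 1959 and 1829 with shRNA 2 and 2049.5 and 2030.1 with shRNA 1, against 1508 and 1509.8 with NTC. The NTC arrays were nearly equal and below all others. MSMO1 rose by 0.32 ± 0.05 with shRNA 2 (limma, adjusted p = 0.0015) and by 0.43 ± 0.05 with shRNA 1 (adjusted p = 0.00015). LSS, lanosterol synthase, went the other way, with 539.9 and 534 with shRNA 2 and 429.7 and 436 with shRNA 1, against 599 and 589 with NTC. Its groups did not overlap: shRNA 1 was lowest, shRNA 2 between and NTC highest. LSS fell by 0.44 with shRNA 1 (-0.44 ± 0.06, adjusted p = 0.00035), differed by -0.14 ± 0.06 with shRNA 2 (adjusted p = 0.14), and averaged -0.29 ± 0.06 (adjusted p = 0.0022). SC5D, TM7SF2, MSMO1 and LSS kept their averaged call when any 1 array was left out, a fit in which the group left with 1 array is assumed to vary like the others, and LSS lost it when both hairpins were fitted as 1 group (adjusted p = 0.13).

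The remaining enzymes of this stretch were not called on their brightest probe sets. SQLE, squalene epoxidase, stood at 826 and 855 with shRNA 2 and 855 and 912 with shRNA 1, against 888 and 913 with NTC. EBP, a sterol isomerase, stood at 1361 and 1185 with shRNA 2 and 1498 and 1531 with shRNA 1, against 1355 and 1389 with NTC. Both overlapped, with averaged 95% intervals of -0.18 to 0.05 for SQLE and -0.11 to 0.15 for EBP. EBP passed the threshold with each hairpin when the first shRNA 2 array was left out, at -0.21 with shRNA 2 (limma, adjusted p = 0.044) and 0.14 with shRNA 1 (adjusted p = 0.043), and with shRNA 1 without the second (adjusted p = 0.042). DHCR7, the last reductase of the route, had all 4 knockdown arrays below NTC, at 74.4 to 76.8 with shRNA 2 and 81.1 to 86.9 with shRNA 1 against 87.8 and 96.9 with NTC, and an averaged difference of -0.18 ± 0.08 (adjusted p = 0.13). NSDHL, a sterol dehydrogenase, had all 4 above, with a difference of 0.10 ± 0.07 (adjusted p = 0.27). HSD17B7, a ketosteroid reductase, differed by -0.08 ± 0.10 (adjusted p = 0.57) and overlapped.

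STARD4, which moves cholesterol between membranes, is the sterol branch member that is a carrier and not an enzyme. It gave 46.2 and 52.9 with shRNA 2 and 51.9 and 57.3 with shRNA 1, against 35.2 and 38.2 with NTC. Its 4 knockdown arrays were above both NTC arrays. STARD4 rose by 0.37 ± 0.09 on average (limma, adjusted p = 0.013) and by 0.42 ± 0.11 with shRNA 1 (adjusted p = 0.011), and differed by 0.31 ± 0.11 with shRNA 2 (adjusted p = 0.062). The averaged call was lost without NTC replicate 1 (adjusted p = 0.11), and the shRNA 1 call without that array (0.072) or shRNA 1 replicate 2 (0.078).

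**Figure D2:**
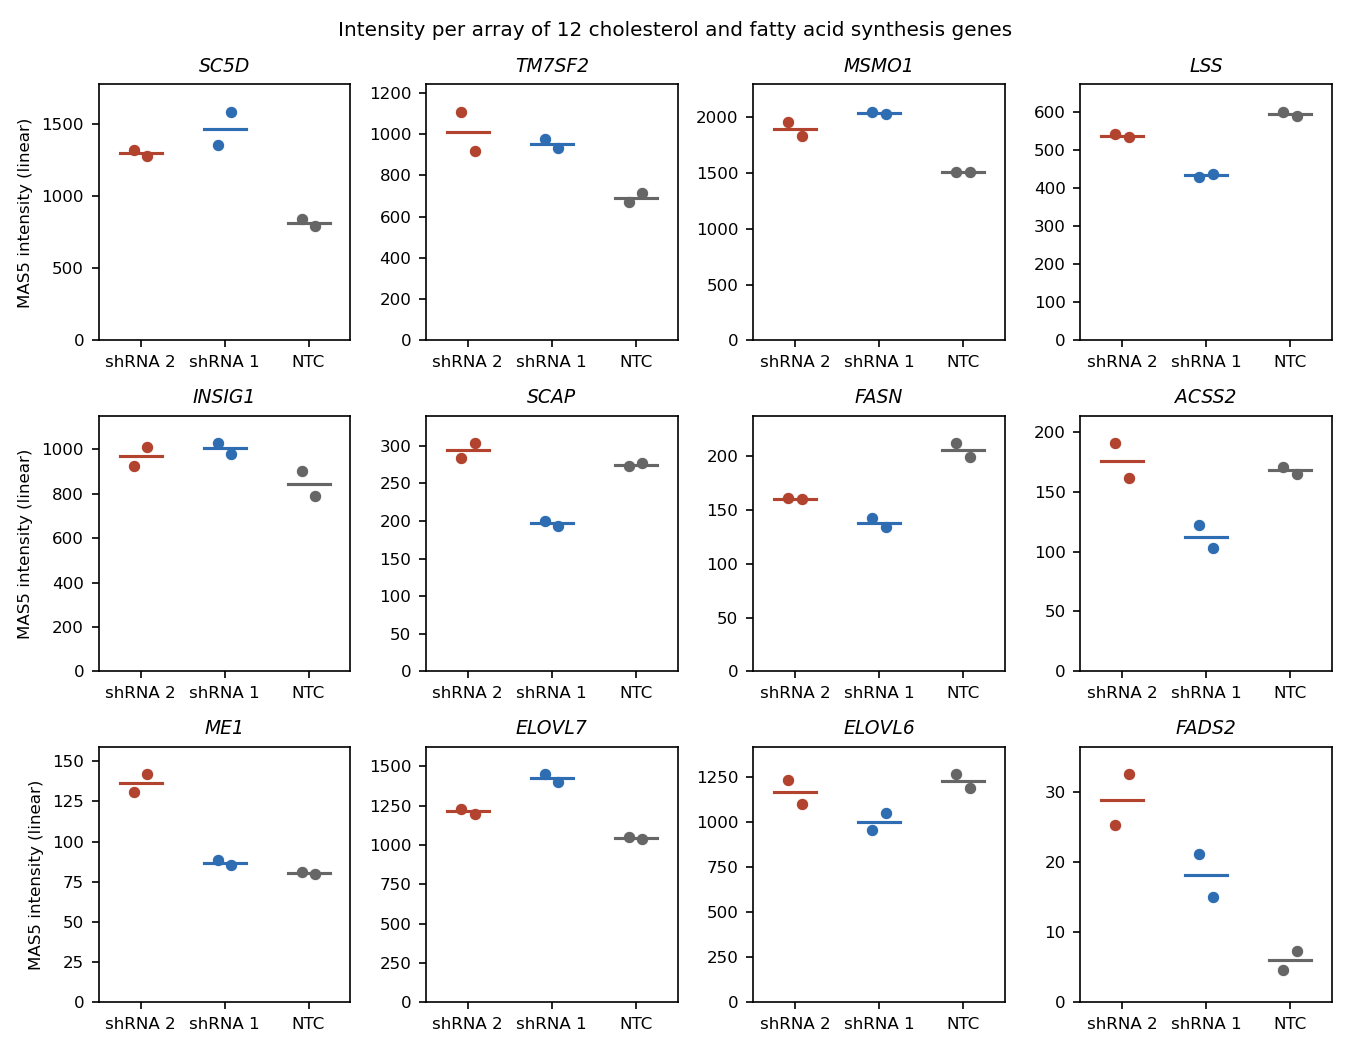
Intensity on a linear scale in each of the 6 arrays for 12 members, with points for arrays and a bar for the mean of the 2 arrays of a group. Groups run from PRMT5 shRNA 2 (red) over PRMT5 shRNA 1 (blue) to NTC (grey), and each axis starts at 0. SC5D, TM7SF2 and MSMO1 are higher in all 4 knockdown arrays, FASN and LSS are lower in all 4, SCAP and ACSS2 are low with shRNA 1, and ME1 is high with shRNA 2.

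The promoters of the called sterol genes with the largest changes, SC5D and TM7SF2, and of INSIG1 and FADS2, described further on, are shown so that the recognition letters of the SREBPs and their partners can be seen. LSS, the 1 called gene of its stretch that was lower, and MSMO1 were added after their values were seen. Each line holds the 250 bases before the first start that RefSeq lists for the gene in GRCh38.p14, in the direction of transcription. Capitals mark matches, on either strand, to the sterol regulatory element TCACNCCAC, the E-box CACGTG, the NF-Y box CCAAT and the GC box GGGCGG. The windows are chr11:121292521-121292770 (plus strand) for SC5D, chr11:65111622-65111871 (plus) for TM7SF2, chr4:165327419-165327668 (plus) for MSMO1, chr21:46228775-46229024 (minus) for LSS, chr7:155297628-155297877 (plus) for INSIG1 and chr11:61815953-61816202 (plus) for FADS2.
SC5D: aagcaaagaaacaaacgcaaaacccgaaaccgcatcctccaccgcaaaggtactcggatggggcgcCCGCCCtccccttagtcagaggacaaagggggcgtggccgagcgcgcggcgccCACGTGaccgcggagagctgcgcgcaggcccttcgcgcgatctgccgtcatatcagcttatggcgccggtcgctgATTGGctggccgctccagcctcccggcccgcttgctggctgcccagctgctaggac
TM7SF2: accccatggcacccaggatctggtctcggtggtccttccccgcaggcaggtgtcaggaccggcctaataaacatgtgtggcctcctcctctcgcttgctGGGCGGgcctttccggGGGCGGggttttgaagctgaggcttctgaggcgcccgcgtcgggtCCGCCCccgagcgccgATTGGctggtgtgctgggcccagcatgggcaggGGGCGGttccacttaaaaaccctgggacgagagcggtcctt
MSMO1: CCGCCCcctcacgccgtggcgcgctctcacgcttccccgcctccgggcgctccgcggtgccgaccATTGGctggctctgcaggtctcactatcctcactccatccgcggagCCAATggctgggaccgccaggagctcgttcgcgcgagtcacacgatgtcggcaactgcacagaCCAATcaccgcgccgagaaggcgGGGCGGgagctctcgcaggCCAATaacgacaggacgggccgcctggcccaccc
LSS: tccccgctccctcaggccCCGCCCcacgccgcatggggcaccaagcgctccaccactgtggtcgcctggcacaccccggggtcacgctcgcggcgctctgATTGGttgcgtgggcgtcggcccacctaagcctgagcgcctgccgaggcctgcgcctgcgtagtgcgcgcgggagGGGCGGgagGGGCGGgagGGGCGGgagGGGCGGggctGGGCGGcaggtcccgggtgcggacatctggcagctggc
INSIG1: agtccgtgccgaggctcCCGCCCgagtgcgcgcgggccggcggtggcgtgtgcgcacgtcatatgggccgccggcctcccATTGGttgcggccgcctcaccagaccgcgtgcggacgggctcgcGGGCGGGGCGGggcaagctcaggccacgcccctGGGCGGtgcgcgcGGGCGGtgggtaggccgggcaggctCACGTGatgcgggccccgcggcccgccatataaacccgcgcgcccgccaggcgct
FADS2: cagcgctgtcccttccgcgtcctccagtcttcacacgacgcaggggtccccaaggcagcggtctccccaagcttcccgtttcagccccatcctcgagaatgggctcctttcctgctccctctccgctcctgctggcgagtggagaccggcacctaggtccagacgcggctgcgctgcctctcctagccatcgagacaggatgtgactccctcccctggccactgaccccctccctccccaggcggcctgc

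MSMO1 held 4 NF-Y boxes and 2 GC boxes, and LSS 1 NF-Y box and 6 GC boxes. TM7SF2 held 1 NF-Y box and 4 GC boxes, and SC5D 1 of each with an E-box. INSIG1 held 1 NF-Y box, an E-box and 5 GC boxes, 2 of which overlap by a base. FADS2 had none of the 4 motifs in its window. RefSeq's table gave a window for 35 of the 39 members. The NF-Y box was found in 13 of 16 sterol branch windows (81.2%) and 5 of 14 fatty acid branch windows (35.7%), against 33% of the 27305 genes in the table. The GC box was found in 15 of 16 (93.8%) and 11 of 14 (78.6%), against 42.3% of all genes. The E-box was found in 1 of 16 sterol branch and 1 of 14 fatty acid branch windows, against 6.49% of all, and SREBF2 was the 1 member of 35 with TCACNCCAC, against 0.875% of all. The NF-Y box was in 6 of 11 windows of members called higher, 2 of 4 of members called lower and 10 of 16 of tested members not called. A match is a description of these letters and no evidence of binding.

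Among the 5 regulators, INSIG1 and INSIG2 were higher with the hairpins averaged, SCAP was lower with shRNA 1, SREBF2 was higher with shRNA 2 and SREBF1 was not called. INSIG1, the retention protein that is itself a known SREBP target, gave 927 and 1012.5 with shRNA 2 and 1029 and 979 with shRNA 1, against 904 and 787.5 with NTC. The 4 knockdown arrays were above both NTC arrays, the first shRNA 2 array only slightly. INSIG1 rose by 0.22 ± 0.07 on average (limma, adjusted p = 0.026) and by 0.25 ± 0.08 with shRNA 1 (adjusted p = 0.025). INSIG2, its paralog, gave 987 and 980.5 with shRNA 2 and 1017 and 1076 with shRNA 1, against 889.9 and 899 with NTC. All 4 knockdown arrays were higher. INSIG2 rose by 0.18 ± 0.05 on average (adjusted p = 0.02). With shRNA 2 alone the differences of 0.20 for INSIG1 and 0.14 for INSIG2 had adjusted p-values of 0.093 and 0.13.

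The calls of both INSIG genes rested on few arrays. INSIG1 averaged 0.12 without NTC replicate 2 (limma, adjusted p = 0.31), and its call was also lost without shRNA 2 replicate 2 (0.052) or shRNA 1 replicate 1 (0.068). With shRNA 1, INSIG1 differed by 0.15 without NTC replicate 2 (adjusted p = 0.23) and was not called without shRNA 1 replicate 1 (0.13) or 2 (0.059). INSIG2 lost its averaged call without shRNA 1 replicate 2 (0.066), NTC replicate 1 (0.14) or NTC replicate 2 (0.11), and its shRNA 1 call (0.22, adjusted p = 0.012) without the same 3 arrays (0.1, 0.073 and 0.058).

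SCAP, the escort protein of the SREBPs, gave 284 and 304 with shRNA 2 and 200.4 and 194 with shRNA 1, against 273 and 277 with NTC. The shRNA 1 arrays were the lowest and the shRNA 2 arrays the highest. SCAP fell by 0.45 with shRNA 1 (-0.45 ± 0.08, limma, adjusted p = 0.0011) and differed by 0.09 ± 0.08 with shRNA 2 (adjusted p = 0.45). SREBF2, the gene of the sterol branch SREBP, gave 386 and 369 with shRNA 2 and 330 and 304 with shRNA 1, against 295 and 331 with NTC. Only the shRNA 2 arrays were above both NTC arrays. SREBF2 rose by 0.26 ± 0.08 with shRNA 2 (adjusted p = 0.045), a call that was lost without any 1 array other than NTC replicate 2: 0.15 and 0.067 without shRNA 2 replicates 1 and 2, 0.057 and 0.056 without shRNA 1 replicates 1 and 2, and 0.29 without NTC replicate 1. SREBF1, the gene of the fatty acid branch SREBP, was near the array medians at 17.8 to 26.7 on its brightest probe set. Its arrays overlapped and its averaged difference of -0.08 ± 0.11 was not called (adjusted p = 0.61). SCAP passed the threshold on average without shRNA 2 replicate 2 (-0.20, adjusted p = 0.043).

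The fatty acid branch begins with the enzymes that supply acetyl-CoA and NADPH and build the chain, of which 6 were tested. With the hairpins averaged 1 was higher, 2 were lower and 3 were not called, and with shRNA 1 alone 4 were lower and 0 higher. These are 50% and 66.7% called, beside 32.4% and 39.3% of all genes. FASN, the synthase that makes palmitate, gave 161 and 159.6 with shRNA 2 and 142 and 134 with shRNA 1, against 212 and 199 with NTC. The groups did not overlap, with NTC highest. FASN fell by 0.43 on average (-0.43 ± 0.07, limma, adjusted p = 0.0013), by 0.52 with shRNA 1 (adjusted p = 0.00079) and by 0.33 with shRNA 2 (adjusted p = 0.019). The shRNA 2 call was lost without either shRNA 2 array (0.052 and 0.05) or either NTC array (0.14 and 0.055), while the averaged call and that with shRNA 1 held without any 1 array.

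ACLY, which splits citrate into cytosolic acetyl-CoA, gave 856.5 and 879.9 with shRNA 2 and 741.5 and 673 with shRNA 1, against 869 and 900.1 with NTC. The shRNA 1 arrays were below all others and the shRNA 2 arrays overlapped NTC. ACLY fell by 0.32 with shRNA 1 (-0.32 ± 0.07, limma, adjusted p = 0.0035), and averaged -0.17 (adjusted p = 0.04), a call lost without shRNA 2 replicate 1 (0.066), shRNA 1 replicate 2 (0.12), NTC replicate 1 (0.12) or NTC replicate 2 (0.24). ACSS2, which makes acetyl-CoA from acetate, gave 191 and 161 with shRNA 2 and 122 and 103 with shRNA 1, against 171 and 165 with NTC. It was low with shRNA 1 and mixed with NTC for shRNA 2. ACSS2 fell by 0.52 with shRNA 1 (-0.52 ± 0.11, adjusted p = 0.0032) and differed by 0.06 ± 0.11 with shRNA 2 (adjusted p = 0.74). Its averaged difference of -0.23 (adjusted p = 0.079) passed the threshold without shRNA 2 replicate 1 (-0.29, adjusted p = 0.038).

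Of the carboxylases that make malonyl-CoA from acetyl-CoA, ACACB was called with shRNA 1 and ACACA in no comparison, and a difference between them was not tested. ACACB, the form at the mitochondrial membrane, gave 203 and 202 with shRNA 2 and 160.4 and 162 with shRNA 1, against 207 and 192 with NTC. It fell by 0.28 with shRNA 1 (-0.28 ± 0.08, limma, adjusted p = 0.019), a call lost without shRNA 1 replicate 1 (0.084), shRNA 1 replicate 2 (0.077) or NTC replicate 1 (0.14). ACACA, the cytosolic form, stood at 1675 to 1885 with shRNA 2 and 1746 to 1885 with shRNA 1, against 1822 to 1904 with NTC. The arrays overlapped, and the averaged 95% interval of its difference ran from -0.18 to 0.08. ME1, the cytosolic malic enzyme that supplies NADPH, gave 131 and 142 with shRNA 2 and 88.5 and 85.5 with shRNA 1, against 81.1 and 80.1 with NTC. The shRNA 2 arrays stood well above the rest. ME1 rose by 0.66 ± 0.09 with shRNA 2 (adjusted p = 0.00049), or 1.58-fold, and differed by 0.09 ± 0.09 with shRNA 1 (adjusted p = 0.46). The averaged difference of ME1 was 0.37 ± 0.08 (adjusted p = 0.005).

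Of the desaturases, FADS2, which starts the synthesis of polyunsaturated fatty acids, was higher with each hairpin. It was dim in control cells, with 25.3 and 32.6 with shRNA 2 and 21.2 and 15.1 with shRNA 1, against 4.6 and 7.4 with NTC. Its NTC arrays were below their array medians, so FADS2 passed the filter only through the knockdown arrays and had to differ, and its call is no support for a change of the branch. Its averaged log2 difference was 0.83 ± 0.12 (limma, adjusted p = 0.00038), and 0.32 to 1.79 as the value added before the logarithm was changed. SCD, the stearoyl-CoA desaturase, gave 2521 and 2462 with shRNA 2 and 2289 and 2471 with shRNA 1, against 2449 and 2369 with NTC on its brightest probe set. Its arrays overlapped and the 95% interval of its averaged difference ran from -0.09 to 0.12.

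The tested elongases moved apart. ELOVL7, an elongase of long saturated chains, gave 1231 and 1195 with shRNA 2 and 1452 and 1403 with shRNA 1, against 1048 and 1039 with NTC. The groups did not overlap and shRNA 1 was highest. ELOVL7 rose by 0.33 ± 0.05 on average (limma, adjusted p = 0.00042), by 0.45 ± 0.06 with shRNA 1 (adjusted p = 0.00013) and by 0.21 ± 0.06 with shRNA 2 (adjusted p = 0.018). The shRNA 2 call was lost without shRNA 2 replicate 1 (0.065), NTC replicate 1 (0.096) or NTC replicate 2 (0.11). ELOVL6, which lengthens palmitate to stearate, gave 1233 and 1103 with shRNA 2 and 959.8 and 1049 with shRNA 1, against 1269 and 1190.2 with NTC. The shRNA 1 arrays were lowest and the shRNA 2 arrays overlapped NTC. ELOVL6 fell by 0.29 with shRNA 1 (-0.29 ± 0.07, adjusted p = 0.0092), not called without shRNA 1 replicate 1 (0.079) or NTC replicate 1 (0.08). Its averaged -0.18 (adjusted p = 0.046) was not called without shRNA 2 replicate 2 (0.085), shRNA 1 replicate 1 (0.12), NTC replicate 1 (0.31) or NTC replicate 2 (0.089). ELOVL5, which lengthens polyunsaturated chains, had 1759 and 1906 with shRNA 2 and 1799 and 1810.2 with shRNA 1, against 1725 and 1534 with NTC. Its 4 knockdown arrays were above both NTC arrays, and the difference of 0.16 ± 0.06 missed the threshold (adjusted p = 0.055), which it passed without shRNA 2 replicate 1 (0.033) or NTC replicate 1 (0.04).

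Of the acyl-CoA synthetases, which activate fatty acids, ACSL1 gave 697 and 853 with shRNA 2 and 579.5 and 600.2 with shRNA 1, against 919.9 and 772 with NTC. The shRNA 1 arrays were lowest, and the shRNA 2 and NTC arrays overlapped and were spread widely. ACSL1 fell by 0.50 with shRNA 1 (-0.50 ± 0.10, limma, adjusted p = 0.0028) and averaged -0.31 (adjusted p = 0.018), or -0.19 without NTC replicate 1 (adjusted p = 0.23). ACSL4, which prefers arachidonate, stood at 82.8 and 114 with shRNA 2 and 111 and 101 with shRNA 1, against 119 and 101 with NTC, and was not called.

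The branches were compared by their medians, as a description without a test. With the hairpins averaged, the median log2 difference of the sterol branch was 0.09, with 6 of 16 genes called higher and 2 lower. It was -0.10 in the fatty acid branch, with 3 of 13 higher and 4 lower, or 2 of 12 higher without FADS2. Over all genes tested it was -0.01, with 15.4% called higher and 17% lower. With shRNA 2 the medians were 0.09 for the sterol branch and 0.02 for the fatty acid branch, against 0.01 over all genes. With shRNA 1 they were 0.15 for the sterol branch and -0.05 for the fatty acid branch, against -0.04 over all genes. Called genes of the sterol branch were 3 higher and 0 lower with shRNA 2, and 6 higher and 2 lower with shRNA 1. These are 18.8% and 50% called, beside 21.5% and 39.3% of all genes. Of all genes, 13.1% were higher and 8.42% lower with shRNA 2, and 16.2% higher and 23.2% lower with shRNA 1. Those of the fatty acid branch were 3 higher and 1 lower with shRNA 2 (30.8% called), and 2 higher and 6 lower with shRNA 1 (61.5%). Without FADS2, of 12 genes 2 were higher and 1 lower with shRNA 2, and 1 was higher and 6 lower with shRNA 1. Without shRNA 2 replicate 2 the averaged sterol median was 0.14, and that of shRNA 2 was 0.16. Without NTC replicate 1 the fatty acid median of shRNA 2 was 0.07, and without NTC replicate 2 the averaged fatty acid median was -0.15, as was that of shRNA 1.

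Per array, the sterol median lay 0.16 and 0.06 above the NTC mean with shRNA 2 and 0.14 and 0.15 above it with shRNA 1, against 0 in both NTC arrays. The fatty acid median lay 0.02 above it in both shRNA 2 arrays and at -0.09 and -0.11 with shRNA 1, against 0.02 and -0.02 with NTC. The sterol median was therefore above the fatty acid median in all 4 knockdown arrays, by 0.14 and 0.04 with shRNA 2 and by 0.23 and 0.26 with shRNA 1, against -0.02 and 0.02 with NTC. Each gene was set against the mean of both NTC arrays, so the NTC medians mirror each other by construction and are no separate control. The spread of a branch median between replicates was 0.039 (SD) for the sterol branch and 0.021 for the fatty acid branch. The second shRNA 2 array differs from NTC by little more than that spread. Each branch held members on both sides of 0, from -0.29 (LSS) to 0.74 (SC5D) and from -0.43 (FASN) to 0.83 (FADS2). Without FADS2 the highest of the fatty acid branch was 0.37 (ME1).

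**Figure D3:**
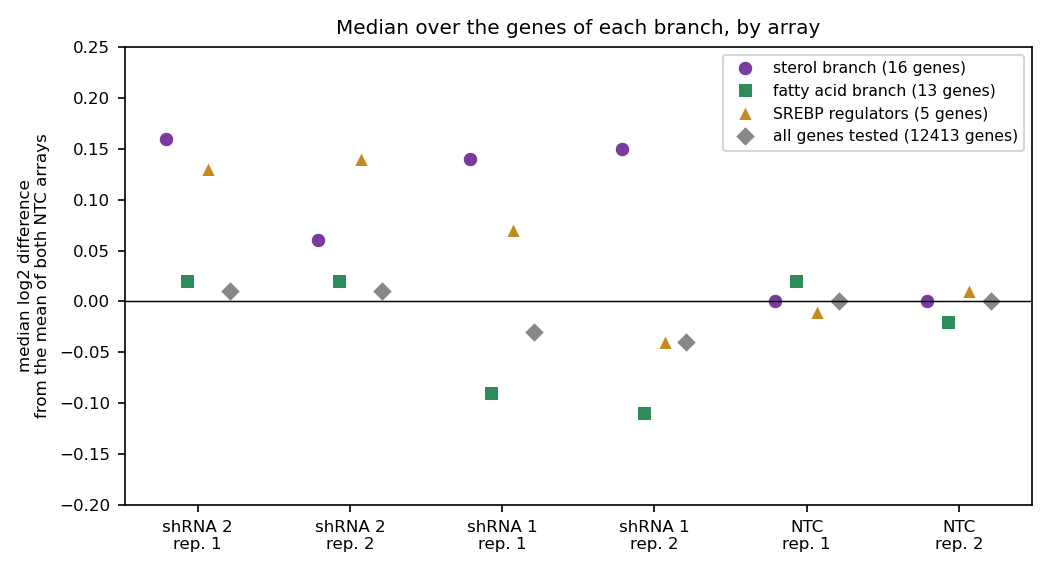
Median log2 difference from the mean of both NTC arrays, for each of the 6 arrays, over the 16 sterol branch genes, 13 fatty acid branch genes, 5 SREBP regulators and all 12413 tested genes. The sterol branch lies between 0.06 and 0.16 in the 4 knockdown arrays, and the fatty acid branch is below 0 in the shRNA 1 arrays at -0.09 and -0.11.

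The hairpins differed from each other in 10 of 34 members, 7 higher with shRNA 2 than with shRNA 1 and 3 lower, beside 25.7% of all genes (18.3% higher and 7.38% lower). Of these 10, 5 of the 13 fatty acid branch genes were higher with shRNA 2 (ACSS2, ME1, ACSL1, ACACB and ACLY) and ELOVL7 was lower. SCAP and LSS were also higher with shRNA 2 than with shRNA 1, and PMVK and EBP were lower. On the brightest probe sets the largest differences were 0.58 ± 0.11 for ACSS2 (limma, adjusted p = 0.0041), 0.56 ± 0.09 for ME1 (adjusted p = 0.0027) and 0.54 ± 0.08 for SCAP (adjusted p = 0.0014). Dimmer probe sets (limma over probe sets) gave -0.94 for SC5D (adjusted p = 0.00044), -0.53 for HMGCS1 (0.0032) and -0.40 for SCD (0.0019). They gave 0.55 for ME1 (0.0059), 0.54 for ACLY (0.0072), 0.47 for SREBF1 (0.022) and 0.45 for LSS (0.022). EBP was lower with shRNA 2 on its dimmer probe sets too (-0.37, adjusted p = 0.0035, and -0.21, 0.038). The median over the fatty acid branch was 0.21, against -0.09 over the sterol branch and 0.06 over all genes. PRMT5 itself was higher with shRNA 2 by 1.09 ± 0.08. The ACTB control probe sets gave 3'/5' ratios of 5.72 and 5 with shRNA 2 and 3.49 and 3.88 with shRNA 1, against 4.58 and 4.88 with NTC, and its part in these differences was not tested. ACSS2, ME1, SCAP and LSS remained called without any 1 array. Leaving out shRNA 2 replicate 2 moved ACSL1 to 0.23 (adjusted p = 0.13), PMVK to -0.12 (0.28) and EBP to -0.15 (0.11). ACSL1 was also lost without shRNA 1 replicate 1 (0.09) or 2 (0.073), and EBP without shRNA 1 replicate 1 (0.07) or 2 (0.11). ACSL1's second probe set gave a difference of 0.05 between hairpins (adjusted p = 0.65). ACACB was lost without any 1 of the 4 knockdown arrays (0.055 to 0.095), ACLY without shRNA 1 replicate 2 (0.22, adjusted p = 0.094) and ELOVL7 without shRNA 1 replicate 1 (-0.21, adjusted p = 0.081). PMVK moved to -0.52 without shRNA 2 replicate 1 (adjusted p = 0.0031) and was lost without any 1 other array. SC5D was called without shRNA 1 replicate 1 (-0.28, adjusted p = 0.037) and ELOVL6 without shRNA 2 replicate 2 (0.29, adjusted p = 0.031). Without shRNA 1 replicate 1 or 2 the count of members called was 6 or 5.

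Several members are read by more than 1 probe set, and these did not always give the same answer. Of 67 kept probe sets of members, 26 (38.8%) were called with the hairpins averaged, 18 higher and 8 lower, beside 28.2% of all kept probe sets. Those are 28644 probe sets, of which 23920 have a single symbol as the members' do. Of all kept probe sets, 18% were called with shRNA 2 and 36.4% with shRNA 1. Of 20 members with more than 1 kept probe set, 14 had them all on 1 side of 0 and 6 on both sides, and 0 members had one called higher and another called lower. INSIG1 was higher on all 3, with averaged differences of 0.22 to 0.40. ME1 was higher on both of its probe sets (0.37 each), LSS was lower on both (-0.33 and -0.29) and ACSL1 was lower on both (-0.31 and -0.28). SC5D's dimmer probe set gave 133 and 120 with shRNA 2 and 260.4 and 252 with shRNA 1, against 112 and 87.5 with NTC. Both probe sets were called higher on average, but this one rose by 1.24 ± 0.11 with shRNA 1 (limma, adjusted p = 1.2e-05) and differed by 0.30 ± 0.11 with shRNA 2 (adjusted p = 0.079).

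SCD, not called on its brightest probe set, had a second one at 537 and 511 with shRNA 2 and 698 and 698 with shRNA 1, against 484 and 496 with NTC. The shRNA 1 arrays stood apart there, with a rise of 0.50 ± 0.06 (limma over probe sets, adjusted p = 2e-04), while the brightest gave -0.02 ± 0.06. HMGCS1's dimmer probe set gave 78.6 and 80.1 with shRNA 2 and 126 and 117 with shRNA 1, against 68.5 and 70.3 with NTC. Its rise of 0.69 with shRNA 1 was larger than the 0.30 of the brighter one. SQLE was called higher with shRNA 1 on 2 dimmer probe sets (0.35, adjusted p = 0.034, and 0.25, adjusted p = 0.05 after rounding), and EBP on 1 (0.21, adjusted p = 0.031). ACSL1's second probe set gave 388 and 372.5 with shRNA 2 and 369 and 367 with shRNA 1, against 452 and 461 with NTC, without overlap, and was lower with shRNA 2 too (-0.25, adjusted p = 0.025). ELOVL5 was called on its dimmer probe set only (0.35 ± 0.09 on average, adjusted p = 0.013). ELOVL6 fell by 0.43 on its second probe set (-0.43 ± 0.07, adjusted p = 0.0014), which gave 383 and 454 with shRNA 2 and 328 and 334 with shRNA 1, against 500.4 and 509.9 with NTC, without overlap. ACLY was lower on its brightest probe set, and its dimmest gave 0.12 (adjusted p = 0.47). The transcripts that each probe set reads were not examined.

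**Figure D4:**
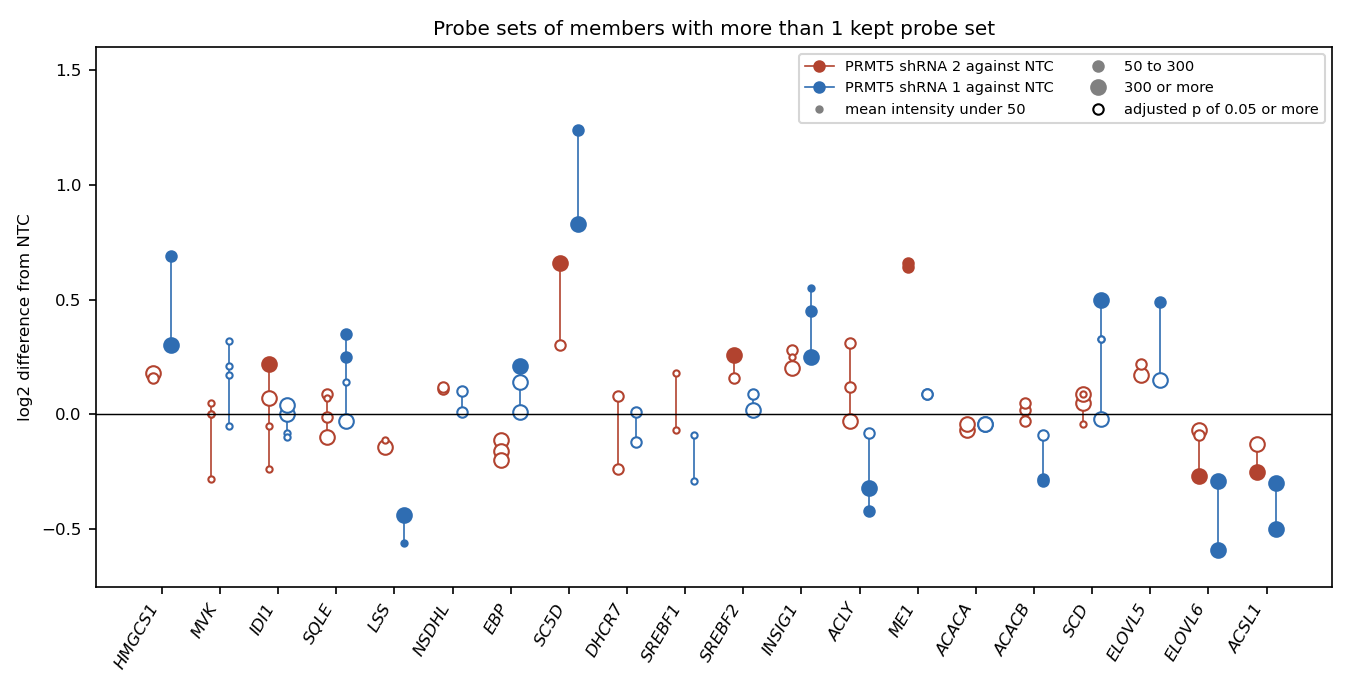
Log2 difference from NTC of every kept probe set, for the 20 members with more than 1, with PRMT5 shRNA 2 (red) and PRMT5 shRNA 1 (blue). Larger points are brighter probe sets in the size classes of the legend, lines join the probe sets of a gene, and open points had an adjusted p of 0.05 or more. SC5D, HMGCS1 and SCD spread widely with shRNA 1, and ME1's probe sets coincide.

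Neighbouring pathways give the setting. With the hairpins averaged, 32.4% of all genes were called, and the share of each list is given beside its count. Of 11 tested genes that process or degrade SREBPs and their partners, 1 was higher and 0 lower (9.09%). The higher gene was PAQR3, which tethers SCAP at the Golgi, at 442 and 483 with shRNA 2 and 541 and 515 with shRNA 1, against 433 and 396 with NTC. Its rise was 0.25 ± 0.07 (limma, adjusted p = 0.016). Of 19 genes of cholesterol uptake, storage and export, 4 were higher and 5 lower (47.4%). LRP8, a receptor of the LDL receptor family, gave 83.7 and 94.8 with shRNA 2 and 86 and 81.5 with shRNA 1, against 146.5 and 151 with NTC, and fell by 0.69 (-0.69 ± 0.08, adjusted p = 0.00012). ABCG1, a sterol exporter and known target of the oxysterol receptors, gave 526 and 597 with shRNA 2 and 381 and 345 with shRNA 1, against 700 and 630.4 with NTC. It fell by 0.54 on average (-0.54 ± 0.07, limma, adjusted p = 0.00027). Its shRNA 1 arrays were lowest, and its shRNA 2 arrays lay between those and NTC. Calls by hairpin are given here for LRP8 and SCARB1 only. CYP7B1, an oxysterol hydroxylase, averaged -0.49 ± 0.09 and SCARB1, the HDL receptor, -0.39 ± 0.08. LRP8 was lower with each hairpin (-0.65 with shRNA 2 and -0.72 with shRNA 1), and SCARB1 was lower with shRNA 1 (-0.61) and not called with shRNA 2 (-0.17, adjusted p = 0.25).

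Of 12 genes of the other mevalonate products, 1 was higher and 2 were lower, which is 25% called beside 32.4% of all genes. The higher one was ICMT, which methylates prenylated proteins (0.14). The lower ones were both of the complex that makes the side chain of coenzyme Q: PDSS1 (-0.46 ± 0.08) and PDSS2 (-0.23 ± 0.05). Of 15 further desaturases, elongases and acyl-CoA synthetases, 4 were higher and 1 lower (33.3%). SCD5, a desaturase paralog of SCD, gave 417 and 410.5 with shRNA 2 and 362.5 and 356.5 with shRNA 1, against 243 and 218 with NTC, and rose by 0.71 ± 0.07 (limma, adjusted p = 1.7e-05). ELOVL4, an elongase of very long chains, rose by 0.50 ± 0.09, ACSF2 by 0.35 ± 0.09, and ACSM3, a medium-chain acyl-CoA synthetase, fell by 0.64 (-0.64 ± 0.06). Of 16 genes of citrate and NADPH supply and lipogenic cofactors, 2 were higher and 3 lower (31.2%). PPARGC1B, a coactivator of lipogenic transcription, gave 135 and 134.5 with shRNA 2 and 188.5 and 151.5 with shRNA 1, against 265 and 289 with NTC, and fell by 0.81 (-0.81 ± 0.09, adjusted p = 5.8e-05). ME3, a mitochondrial malic enzyme, averaged -0.38 and MID1IP1, an activator of the acetyl-CoA carboxylases, 0.30. THRSP, another lipogenic cofactor, was near background at 17 and 23.4 with shRNA 2 and 7.1 and 5.2 with shRNA 1, against 4.1 and 4.2 with NTC. It passed the filter only through the shRNA 2 arrays and so had to differ. The counts of this list include THRSP, and its part in them is no support for a change.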

How the data were processed

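Total RNA was column-purified with DNase treatment, amplified, biotin-labelled and hybridised, per the labels' protocols. The intensity values, on a linear scale, are the authors' deposited MAS5 output (tool named in the submitters' processing notes, its version not given in the sources used here). Trimmed of 2% at each end, every array had a mean of 150, so no scaling was added. Probe sets were named by the platform annotation.

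A probe set was kept if it reached its array's median in at least 2 of the 6 arrays, and the brightest kept one stood for its gene. Values were fitted as log2(intensity + 16) with limma 3.58.1 in R 4.3.3 (a coefficient per group, eBayes with a trend, 3 residual and 7.91 prior degrees of freedom). Tests were two-sided, with Benjamini-Hochberg adjustment over 12413 genes, and errors are standard errors (SE) of the fit. The number of arrays limits the precision; the median SD between replicates was 0.08 (log2). Promoter windows came from RefSeq (GRCh38.p14).

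The members and lists were chosen with earlier results of these data known. All members are named or counted, and from each companion list up to 4 called genes with the largest averaged difference. Promoters are those of the 2 called genes of each branch with the largest averaged difference and of INSIG1, of which FASN is named only. Those of LSS and MSMO1 were added after their values were seen. No pairing by replicate number was seen, as deviations of same-numbered arrays correlated at 0, -0.18 and -0.09. This cannot show that the samples were unpaired. Alternatives were another added value, no filter, quantile normalization or median centring, the mean over probe sets, leaving out _x_at and _s_at probe sets, no trend, a block, pooled hairpins and leaving out each array, where the group left with 1 array is assumed to vary like the other groups.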

Additional observations from a re-analysis of the deposited data

Results flagged for a closer look

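In 10 of 34 members (29.4%) the effects of the hairpins differed by the contrast of PRMT5 shRNA 2 with PRMT5 shRNA 1 in limma. This share is near the 25.7% of all genes called in that contrast, which uses the same fit as the other comparisons. ACSS2 differed by 0.58 (adjusted p = 0.0041), ME1 by 0.56 (0.0027), SCAP by 0.54 (0.0014) and LSS by 0.30 (0.0074), and these 4 were called in every alternative that tested them. ACSL1 differed by 0.38 (0.02) on its brightest probe set and by 0.05 (0.65) on its second, ACACB by 0.30 (0.023) and ACLY by 0.29 (0.01). PMVK differed by -0.32 (0.046) and ELOVL7 by -0.23 (0.013). EBP differed by -0.25 (0.022) on its brightest probe set and by -0.37 (0.0035) and -0.21 (0.038) on its dimmer ones. Each of these 6 lost its call when at least 1 array was left out. PRMT5 stood at 291 and 321 with shRNA 2 and 136 and 134 with shRNA 1, against 809.8 and 880.5 with NTC, and the ACTB 3'/5' ratios at 5.72 and 5 with shRNA 2 and 3.49 and 3.88 with shRNA 1, against 4.58 and 4.88 with NTC. Their part in these differences was not tested. With 2 arrays in a group, no single array could be checked against the others of its group.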

How the results depend on the processing

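With the hairpins averaged, SC5D, TM7SF2, MSMO1, FASN and ELOVL7 stayed called in every alternative that tested them. Without _x_at and _s_at probe sets, which leaves 23 members tested, 11 members were called on average, 12 with shRNA 1 and 4 with shRNA 2. Of the 9792 genes tested there, 3263 were called on average, 3908 with shRNA 1 and 2155 with shRNA 2. In that setting 14 probe sets of members were called, and the averaged fatty acid median was -0.05. Without a trend in eBayes 10 of 34 members were called on average, beside 3677 of 12413 genes, so the members were near the share of all genes there. With both hairpins as 1 group of 4 arrays, whose spread holds the difference between hairpins, 6 members and 1505 of all genes were called. The averaged fatty acid median was -0.07 with 64 added before the logarithm and -0.07 as the mean over probe sets, where that of shRNA 2 was 0.05. The shRNA 1 median was -0.10 after quantile normalization, and that of shRNA 2 against shRNA 1 was 0.18 with 64 added and 0.19 after median centring. SCD with shRNA 1 turned to 0.28 (adjusted p = 0.036) as the mean over probe sets, against -0.02 on the brightest one. The cause of these shifts was not tested.

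Leaving out each array in turn gave 10 to 18 members called on average, 5 to 7 with shRNA 2, 14 to 21 with shRNA 1 and 5 to 9 for shRNA 2 against shRNA 1. Over all genes it gave 2202 to 4252, 1560 to 2447 with shRNA 2, 3189 to 5292 with shRNA 1 and 1345 to 2808 between hairpins, and 13 to 27 probe sets of members. The sterol median ran from 0.07 to 0.14 on average, 0.06 to 0.16 with shRNA 2, 0.12 to 0.15 with shRNA 1 and -0.09 to -0.04 between hairpins. The fatty acid median ran from -0.15 to -0.08 on average, 0 to 0.07 with shRNA 2, -0.15 to -0.05 with shRNA 1 and 0.19 to 0.23 between hairpins. With the replicate block, 14 members were called on average, 7 with shRNA 2, 18 with shRNA 1 and 10 between hairpins, against 17, 8, 19 and 10 without it. Over all genes the replicate block gave 3711, 2441, 4565 and 2845 calls in the same order, and 24 probe sets of members. Array number and dim signal near the medians limit FADS2, SREBF1, MVK and MVD.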

Other observations

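Storage and breakdown of fatty acids were read from further lists. Of 17 tested genes of glycerolipid synthesis and lipid droplets, 5 were called higher and 1 lower with the hairpins averaged, which is 35.3% beside 32.4% of all genes, and their median difference was 0.06. MGLL, monoacylglycerol lipase, gave 541 and 510.4 with shRNA 2 and 342 and 302 with shRNA 1, against 225 and 213 with NTC, and rose by 0.86 ± 0.07 (limma, adjusted p = 5.7e-06). DGAT2, which completes triglyceride synthesis, gave 203 and 146 with shRNA 2 and 159.8 and 179 with shRNA 1, against 97.4 and 96 with NTC, and rose by 0.73 ± 0.11 (adjusted p = 0.00063). For both genes all 4 knockdown arrays were above both NTC arrays. HILPDA, a lipid droplet protein, rose by 0.38 ± 0.06 (adjusted p = 0.00048), and PNPLA2, the lipase that starts triglyceride breakdown, fell by 0.34 (-0.34 ± 0.11, adjusted p = 0.041).

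Of 25 tested genes of fatty acid oxidation, 6 were called higher and 3 lower, which is 36% beside 32.4% of all genes, with a median of 0.10. AMACR, the racemase of branched-chain fatty acids that is a known prostate cancer marker, gave 99.7 and 98.7 with shRNA 2 and 172 and 157 with shRNA 1, against 454 and 469 with NTC, a log2 difference of -1.73 ± 0.07 in limma (adjusted p = 2.7e-08). All 4 knockdown arrays were below both NTC arrays. ETFB, a subunit of the electron transfer flavoprotein, rose by 0.47 ± 0.07 (adjusted p = 0.00034). DECR1, a dienoyl-CoA reductase, averaged 0.58 ± 0.15 (adjusted p = 0.014), with 1139.8 and 913 with shRNA 2 and 987 and 778 with shRNA 1, against 500.3 and 780.3 with NTC. Its NTC arrays differed widely and the groups overlap. PPARA and PPARD, nuclear receptors that fatty acids activate, each averaged 0.33 and were called higher with shRNA 2 (0.52 and 0.61) and not called with shRNA 1 (0.15 and 0.05).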
